A study of Mus musculus with 26 samples.

Results

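The enzymes, regulators and carriers of glycolysis and fructolysis were examined in inguinal subcutaneous white adipose tissue of refed mice. They are a list of 34 genes, from the hexokinases to the lactate carriers, and each was found on the array by its gene name. The array carried 78 probes for them, 72 of which passed a filter on dim spots and were tested, and these covered 33 of the 34 genes. Pklr, the liver-type pyruvate kinase, was not tested, since its single probe was well above background on 15 of 26 arrays. Each gene is given at its tested probe of highest mean intensity, among 25407 genes treated the same way.

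There were 26 arrays with 1 male C57BL6/J mouse each, and every mouse had food withdrawn for 24 h before 18 h of refeeding with food and 20% glucose in the drinking water. Total ChREBP KO mice (n = 7) were Mlxipl-null and so without ChREBPα and ChREBPβ, and were set against 7 WT mice of that line. ChREBPβ KO mice (n = 5) carried a germline CRISPR/Cas9 deletion of Mlxipl exon 1b, which takes away the shorter isoform, and were set against 7 WT mice of their own line. The deletion had been derived in more than 1 line of mice, and the labels do not tell which of them a mouse came from. The comparison asked how far fat glycolysis genes follow both isoforms, or the shorter one.

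Glycolysis splits glucose into pyruvate, and fructolysis feeds fructose into the same chain below its main control step, phosphofructokinase. In fat cells the chain supplies glycerol phosphate, citrate and energy for lipid synthesis after a meal, and much of the glucose taken up leaves again as lactate. ChREBP, encoded by Mlxipl, is a glucose-responsive transcription factor that binds with its partner Mlx to the carbohydrate response element, a pair of E-box-like half-sites. Many steps have several isoforms, some of them typical of liver or skeletal muscle.

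Promoter sequences show where letters of such elements lie close to the starts of these genes. RefSeq promoters (build GRCm38.p6, 250 bases before and 50 bases after each start) were at hand for all 34 members, as 52 promoters. The E-box CACGTG reads the same on both strands and was found in 7 of 52 member promoters (13.5%) and in 2349 of 32851 promoters in all (7.15%). By gene, 7 of 34 members held it, against 8.09% of 27025 genes. The 7 were Fbp2, Khk, Ldha, Pfkfb2, Pfkfb3, Pfkm and Slc16a1. Of these 7, 4 were called in total ChREBP KO, beside 18 of all 33 tested members. The sites are shown for those 4 and for Khk, the fructose kinase, with the E-box in capitals.
Pfkfb3 (chr2:11502126-11502155, minus strand): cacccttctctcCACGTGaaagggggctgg
Pfkfb2 (chr1:130715826-130715855, minus strand): ggccaagcgcccCACGTGactcgccccaac
Ldha (chr7:46845647-46845676, plus strand): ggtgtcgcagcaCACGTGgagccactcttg
Ldha (chr7:46845744-46845773, plus strand): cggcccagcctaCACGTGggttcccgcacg
Slc16a1 (chr3:104638452-104638481, plus strand): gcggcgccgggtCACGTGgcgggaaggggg
Khk (chr5:30921476-30921505, plus strand): agcgttccccgtCACGTGacaccgttaatc

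Of the members with an E-box, Pfkfb3 and Pfkfb2 were higher in total ChREBP KO, and Ldha and Slc16a1 were lower. Khk, Fbp2 and Pfkm were not called. An exact E-box with a CANNTG at a spacing of 5 bases, on either strand, was found in 0 of 52 member promoters and in 22 of 32851 promoters (0.067%). A looser pair, CANGNG and CNCNTG at a spacing of 5 bases, was searched after the data had been seen. This pair reads the same on both strands. It was found in the promoters of 2 of 34 members, Pfkfb2 and Pklr, against 0.64% of 27025 genes. By promoter, it was in 2 of 52 member promoters against 183 of 32851 promoters (0.557%). Since Pklr is a known target and the search followed the data, no excess among the members can be read from these shares. The Pklr match is shown because Pklr is a textbook target of ChREBP in liver, and the Pfkfb2 match because it lies upstream of that gene's E-box. Capitals mark the whole pair with its spacer.
Pklr (chr3:89136447-89136475, plus strand): ggacgcCACGGGGCACTCCCGTGgttcct
Pfkfb2 (chr1:130715912-130715940, minus strand): agacccCAGGAGCCCGCCCCCTGccctgc

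None of these patterns was found in these windows of Hk2, Eno1, Pfkl or Pkm, the members that fell furthest at bright probes.

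The brightest Mlxipl probe read 15.62 to 16.59 in WT and 13.63 to 14.00 in total ChREBP KO on the log2 scale, and 15.29 to 16.18 in WT and 13.94 to 14.38 in ChREBPβ KO, and the ranges of KO and WT were apart in both lines at this probe. Of the other 2 Mlxipl probes, the first was at 53.4% of WT in total ChREBP KO and 62.4% in ChREBPβ KO, and was called in the total KO alone (adjusted p = 2.29e-06 and 0.0585). The second was at 91.0% and 102.9% and was called in neither. The ChREBPβ line lost a short stretch with exon 1b, a first exon. On the plus strand the brightest probe (chr5:135613705-135613764, mm9) and the second (chr5:135614195-135614252) lie far downstream of the first (chr5:135598483-135599113). These 2 probes therefore lie outside that deletion. Whether the first does, and whether any of the probes lies in the deleted sequence of the total line, is not given in the sources used here. Tissue make-up differed between groups. The mean log2 level of 15 lymphocyte markers was 12.3 ± 0.578 (SD) in WT of the total line, 10.2 ± 1.41 in total ChREBP KO, 8.21 ± 0.373 in WT of the ChREBPβ line and 8.34 ± 0.588 in ChREBPβ KO. All 15 were called lower in total ChREBP KO, whereas of 13 adipocyte markers 11 were called higher and 1 lower. The lower one was the glucose transporter gene Slc2a4, with a mean of 16.19 in WT and 15.38 in total ChREBP KO. The mean level of 8 thermogenic (brown or beige fat) markers was 12.9 ± 0.880 in WT of the total line, 11.1 ± 0.337 in total ChREBP KO, 10.3 ± 0.574 in WT of the ChREBPβ line and 9.89 ± 0.333 in ChREBPβ KO. In total ChREBP KO, 5 of the 8 were called lower and 1 higher, and between the WTs all 8 were lower in the ChREBPβ line. Ucp1, which defines such cells, had a mean of 15.44 in WT and 8.59 in total ChREBP KO, and of 8.61 and 7.07 in WT and KO of the ChREBPβ line. In total ChREBP KO the thermogenic score fell together with Hk2, Gpi1 and Pfkl, given below. WT of the ChREBPβ line had a lower score than total ChREBP KO, but higher means of Hk2 (13.86 against 12.52) and Gpi1 (16.26 against 15.73). The part of these markers in the falls was not tested. The score of 12 skeletal muscle markers ran from 6.36 to 12.8 over all arrays. Its mean was 7.84 ± 2.29 in WT of the total line and 10.5 ± 2.07 in total ChREBP KO. In the ChREBPβ line it was 9.47 ± 1.84 in WT and 9.64 ± 1.93 in KO. In total ChREBP KO, 5 of the 12 were called higher and 0 lower. In bulk tissue, fewer cells of a type and less RNA per cell cannot be told apart.

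In total ChREBP KO, 13 of the 33 tested members were lower and 5 were higher than in WT at an adjusted p of 0.05 (limma, all tested probes), and 15 were not called. The falls lay at glucose phosphorylation, at the isomerase, phosphofructokinase and aldolase steps and in the lower chain down to lactate export, while the rises were the 4 Pfkfb genes and Tpi1. Over all genes, 19.7% were called lower and 26.2% higher. The median log2 fold change of the members was -0.27, against 0.05 for all genes. KO and WT arrays did not overlap for 12 members, 9 of them lower and 3 higher, beside 14.7% of all genes. Within each of the 4 wash batches, 17 of the 18 called members kept their direction, the exception being Pfkfb2. The 26 arrays lay on 15 slides. With slide as a fixed block 11 of the 18 calls remained, and those of Hk1, Gckr, Pfkfb2, Pfkfb4, Aldoa, Eno2 and Ldha were lost. With slide as a random block all 18 remained.

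**Figure D1:**
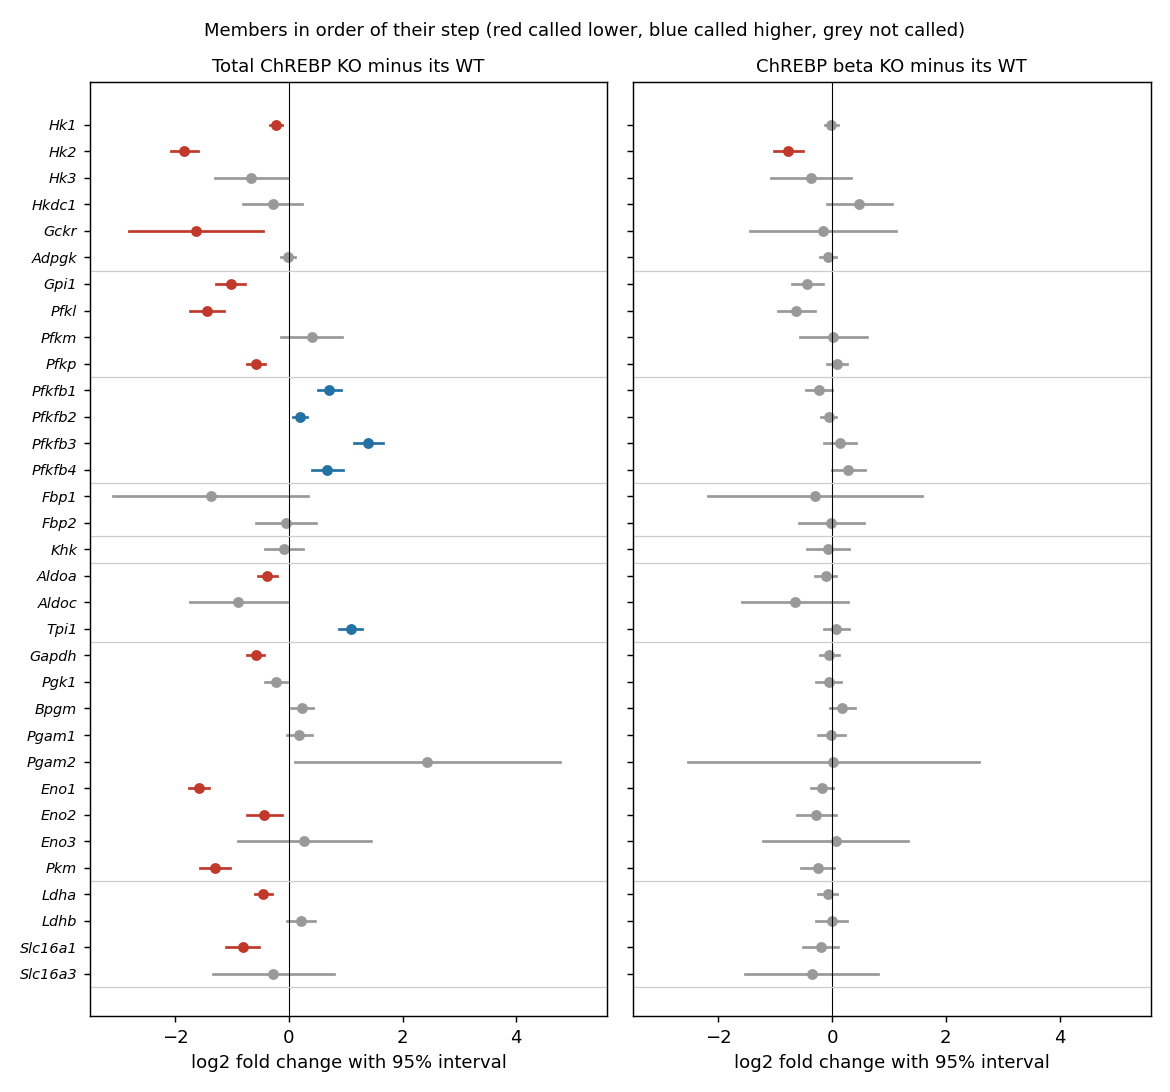
Log2 fold change (KO minus WT) of the 33 tested members in total ChREBP KO (left) and ChREBPβ KO (right), in order of their step and separated by role, with 95% intervals from limma over 26 arrays. Red points were called lower and blue points higher. On the left 13 members are red and 5 blue, and on the right Hk2 alone is red.

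The first step, phosphorylation of glucose, was led by Hk2, the insulin-responsive hexokinase of fat and muscle (probe at chr6:82675056-82675115, mm9). Its log2 intensity in WT was 13.97 at the lowest, 14.37 at the median and 14.79 at the highest array. In total ChREBP KO it was 12.39, 12.48 and 12.76. Every KO array lay below every WT array, and the KO level was 28.0% of WT (log2 fold change -1.84, SE 0.11, adjusted p = 3.44e-12). Hk1, the broadly expressed hexokinase, was lower by far less, at 85.8% of WT (log2 fold change -0.22, adjusted p = 0.00131), and none of its 3 dimmer probes was called. The Hk1 call was lost with lymphocyte and muscle scores as covariates (-0.14, adjusted p = 0.243) and with the median over its probes (-0.10, adjusted p = 0.257).

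Gckr encodes the regulatory protein that holds glucokinase inactive. It was dim and uneven, with 6.06, 6.66 and 9.50 as the lowest, median and highest WT array and 5.27, 5.40 and 6.11 in total ChREBP KO, so that the groups overlapped slightly. Its log2 fold change was -1.64 (SE 0.57, adjusted p = 0.0217), and the call was lost without WT replicate 6, the highest array (-1.24, adjusted p = 0.0645). It was also lost with normexp background correction, with the muscle score as a covariate (-1.34, adjusted p = 0.0988) and with both scores (-1.38, adjusted p = 0.328), and over all alternatives the log2 fold change ran from -2.26 to -0.76. Hk3, Hkdc1 and the ADP-dependent glucokinase Adpgk were not called, with log2 fold changes of -0.66, -0.28 and -0.02.

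At the next steps, 3 of 4 genes fell. Gpi1, glucose phosphate isomerase, was at 49.4% of WT (log2 fold change -1.02, SE 0.12, adjusted p = 3.81e-07), and its other 3 probes fell as well. Pfkl, the liver-type phosphofructokinase (chr10:77450926-77450985, mm9), read 12.36, 12.70 and 13.06 at the lowest, median and highest WT array and 11.01, 11.26 and 11.41 in total ChREBP KO. The groups did not overlap, and the KO level was 36.8% of WT (log2 fold change -1.44, SE 0.14, adjusted p = 1.78e-08). Pfkp, the platelet-type isoform, was at 66.8% of WT (adjusted p = 1.62e-06), and Pfkm, the muscle isoform, was not called.

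The 4 Pfkfb genes encode enzymes that make and break fructose 2,6-bisphosphate, the strongest activator of phosphofructokinase, and all 4 rose, against the direction of Pfkl and Pfkp. Pfkfb3, the isoform with the highest kinase activity, changed most (chr2:11393579-11393638, mm9). Its WT arrays read 14.02, 14.53 and 14.72 and its KO arrays 15.67, 15.90 and 16.07 at the lowest, median and highest. No KO array reached down to WT, and the rise was 2.63-fold (log2 fold change 1.40, SE 0.12, adjusted p = 2.55e-09). Pfkfb1 rose 1.64-fold and Pfkfb4 1.60-fold (adjusted p = 3.60e-06 and 1.42e-04). Pfkfb2 rose 1.14-fold at its brightest probe (log2 fold change 0.19, adjusted p = 0.0122), and by 0.49 and 0.43 on the log2 scale at its other probes. With lymphocyte and muscle marker scores as covariates, the calls of Pfkfb2 and Pfkfb4 were lost (adjusted p = 0.676 and 0.112), and those of Pfkfb1 and Pfkfb3 were not.

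**Figure D2:**
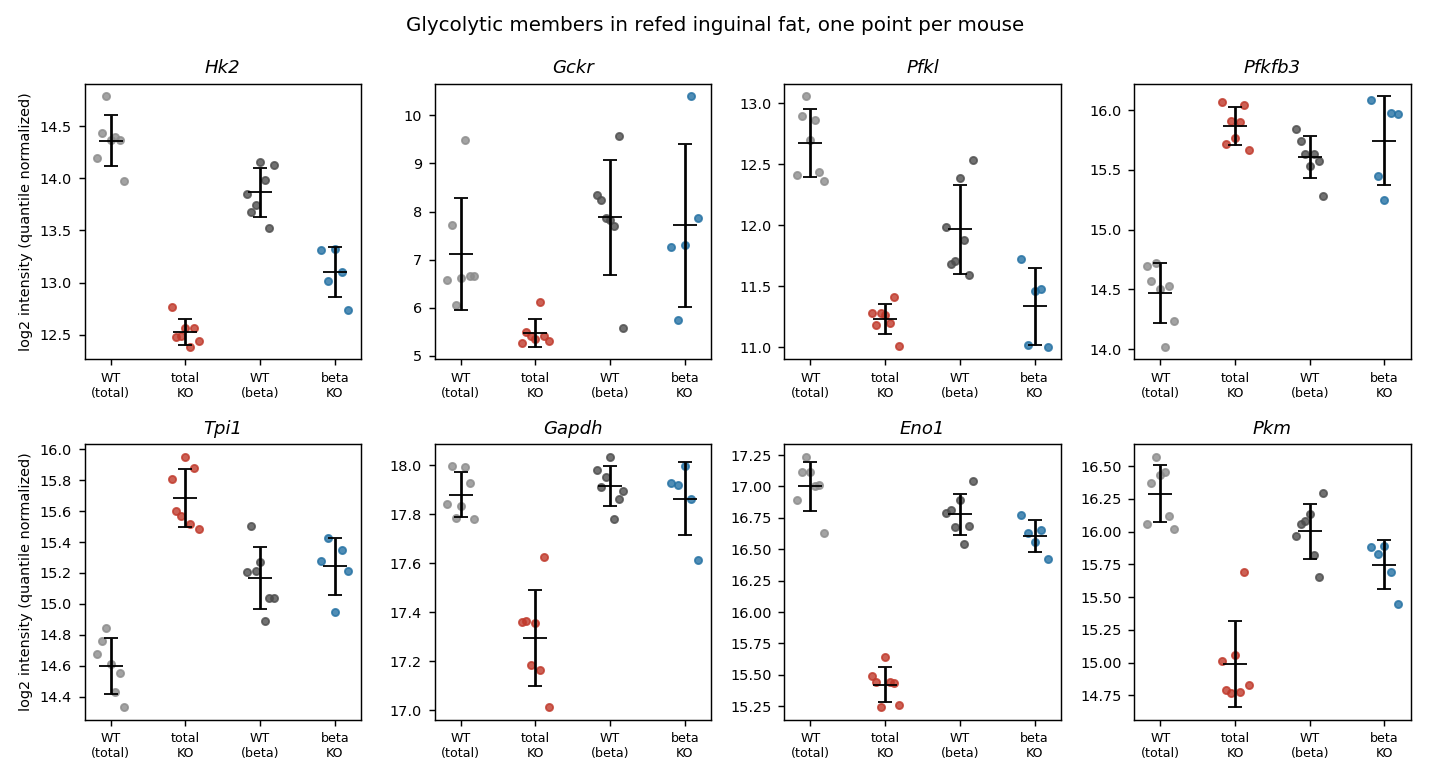
Quantile normalized log2 intensity of 8 members on each array, 1 point per mouse, with the mean and SD of each group as bars. In Hk2, Pfkl, Gapdh, Eno1 and Pkm every total KO point lies below every WT point of its line, in Pfkfb3 and Tpi1 every one lies above, and in Gckr they overlap.

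The fructose branch and the reverse step did not pass the test. Khk, which phosphorylates fructose, read 10.83 to 12.14 in WT and 11.13 to 11.36 in total ChREBP KO (log2 fold change -0.09, 95% interval -0.43 to 0.25). Fbp1, the liver-type fructose bisphosphatase, had a log2 fold change of -1.37 with an interval from -3.09 to 0.34, and Fbp2, the muscle type, one of -0.05. Gckr, Fbp1 and Khk had their highest values on the same array in 3 of the 4 groups. These were replicate 6 of the total WT, replicate 7 of the ChREBPβ WT and replicate 5 of the ChREBPβ KO, where Fbp1 reached 11.15, 9.85 and 10.69 against group medians of 6.93, 8.34 and 7.20. In total ChREBP KO, the highest Fbp1 array read 8.30. All 3 genes are typical of liver, and what these arrays share was not tested.

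At the splitting of the sugar, Aldoa, the main aldolase, and Tpi1, triose phosphate isomerase, went opposite ways. Aldoa was at 76.9% of WT (log2 fold change -0.38, adjusted p = 6.13e-04). Tpi1 read 14.33, 14.61 and 14.85 in WT and 15.49, 15.60 and 15.95 in total ChREBP KO as lowest, median and highest, with no overlap. It rose 2.12-fold (log2 fold change 1.09, SE 0.10, adjusted p = 4.14e-09), and all 4 of its probes were called higher. Tpi1 was thus the sole enzyme of the main chain that rose. Aldoc was not called (log2 fold change -0.89, adjusted p = 0.0808).

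In the lower chain, 4 of 9 tested genes fell and none rose. Eno1, the general enolase (chr4:149622928-149622987, mm9), read 16.63, 17.01 and 17.24 at the lowest, median and highest WT array and 15.24, 15.44 and 15.64 in total ChREBP KO. Every array of total ChREBP KO lay below every array of the other 3 groups, and its level was 33.5% of WT (log2 fold change -1.58, SE 0.09, adjusted p = 4.17e-13). Pkm, the pyruvate kinase of most tissues other than liver (chr9:59527118-59527177, mm9), read 16.02, 16.37 and 16.57 in WT and 14.77, 14.83 and 15.69 in total ChREBP KO, at 40.6% of WT (log2 fold change -1.30, SE 0.13, adjusted p = 1.49e-08). Its highest KO array was replicate 7, which also had the highest muscle score of all arrays. The rank correlation (Spearman) of Pkm with that score was -0.04 in total WT and 0.39 in total KO. It was -0.21 in ChREBPβ WT and 0.40 in ChREBPβ KO. The part of muscle in the Pkm value of replicate 7 was not tested.

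Gapdh, which oxidises glyceraldehyde phosphate and often serves as a reference gene, was at 66.7% of WT at its brightest probe (log2 fold change -0.59, SE 0.07, adjusted p = 8.81e-07). The neuronal enolase Eno2 was at 74.2% of WT (adjusted p = 0.0230), a call that was lost without total WT replicate 8, total KO replicate 1 or total KO replicate 4, and with both marker scores as covariates (log2 fold change -0.09, adjusted p = 0.820). Pgk1, Bpgm and Pgam1 were not called, with log2 fold changes of -0.22, 0.23 and 0.18 and adjusted p of 0.0609, 0.0530 and 0.167. Pgk1 and Bpgm were called in 6 of 15 alternative analyses each. In the main analysis the phosphoglycerate kinase and mutase steps thus had no called gene between the falls of Gapdh and Eno1.

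Of the lactate genes, 2 of 4 fell. Slc16a1, the lactate carrier MCT1, was at 56.9% of WT (log2 fold change -0.81, SE 0.14, adjusted p = 3.94e-05). Ldha, the lactate dehydrogenase subunit that favours lactate, was at 73.3% of WT at its brightest probe (log2 fold change -0.45, adjusted p = 2.21e-05). The heart-type subunit Ldhb and the carrier Slc16a3, known as MCT4, were not called (log2 fold changes 0.22 and -0.27).

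Several of these falls were larger at other probes of the same gene. Of the 18 called members, 12 had more than 1 tested probe, and in 10 of the 12 every probe was called the same way, the exceptions being Hk1 and Pfkp. In 8 of the 12, every dimmer probe showed a larger absolute change than the brightest one. In Tpi1, Pfkp and Pfkfb3 no dimmer probe did, and the rise of Tpi1 went down to 0.27 on the log2 scale at another probe. The 7 Gapdh probes ran from -0.59 at the brightest (mean 17.73) to -1.31 at the dimmest (mean 13.25). Ldha was at -0.45 and -1.13, Eno1 at -1.58, -2.35 and -1.92, and Pfkl at -1.44 and -2.10. The brightest probes of Aldoa, Gapdh and Ldha ranked between 4 and 166 of 38832 on every array, at the top of the intensity scale. Sizes for the brightest members are therefore given for that probe alone.

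**Figure D3:**
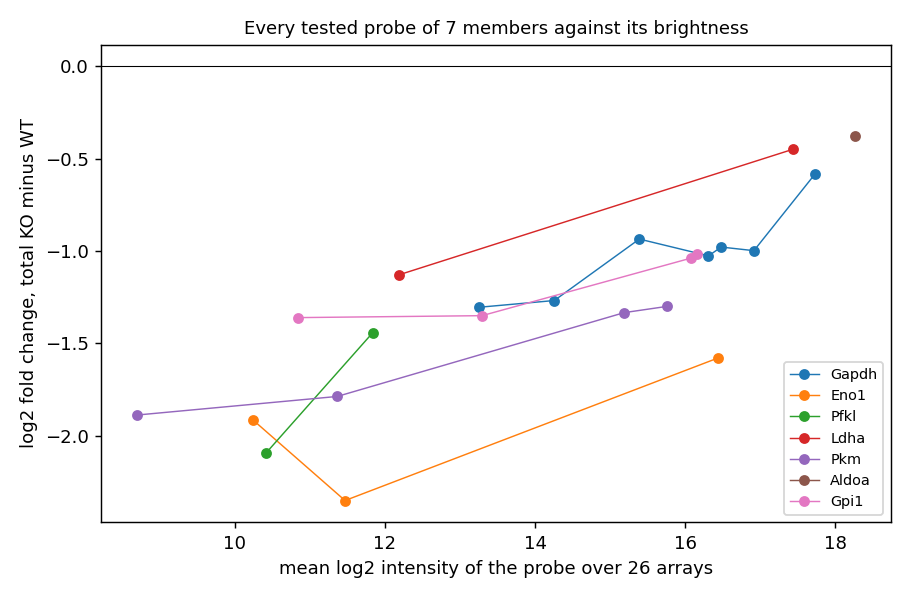
Log2 fold change in total ChREBP KO (vertical axis) against the mean log2 intensity of the probe over 26 arrays (horizontal axis) for every tested probe of 7 members, with lines joining probes of 1 gene. The 7 members shown are among those called lower. All their probes lie below 0, and the brightest probe of each gene with several probes lies closest to 0. Hk1 and Pfkp, also called lower and with several probes, are not shown. In Hk1, 1 of 3 dimmer probes had a larger absolute change than the brightest one, and in Pfkp 0 of 4.

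The 4 muscle isoforms varied with the muscle markers of each array. Pfkm, Fbp2, Pgam2 and Eno3 are the forms of their step found in skeletal muscle, and none was called in any of the 4 comparisons. Pgam2 read 6.14, 6.57 and 11.26 at the lowest, median and highest WT array and 6.09, 10.96 and 13.53 in total ChREBP KO. It read 6.07, 8.78 and 11.60 in WT of the ChREBPβ line and 8.86, 8.22, 12.68, 5.78 and 9.54 on the 5 ChREBPβ KO arrays. Each group thus spanned much of the range of the whole set.

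Eno3 read 10.33, 11.34 and 12.21 at the lowest, median and highest WT array of the total line and 9.54, 11.63 and 13.99 in total ChREBP KO. It read 9.55, 10.32 and 12.30 in WT of the ChREBPβ line and 10.20, 10.11, 13.03, 9.50 and 10.75 in ChREBPβ KO. As with Pgam2, the highest array was replicate 7 in total ChREBP KO and replicate 4 in ChREBPβ KO.

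Pfkm read 11.25, 11.55 and 11.80 in WT of the total line and 11.39, 11.68 and 13.36 in total ChREBP KO. It read 10.86, 11.24 and 11.98 in WT of the ChREBPβ line, and 11.18, 11.01, 12.58, 10.91 and 11.02 in ChREBPβ KO. The highest arrays were again replicate 7 of the total KO and replicate 4 of the ChREBPβ KO.

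Fbp2 was dim throughout, at 5.23, 5.63 and 5.84 in WT of the total line and 5.17, 5.23 and 6.77 in total ChREBP KO. It read 4.86, 5.39 and 6.35 in WT of the ChREBPβ line and 5.31, 4.82, 6.55, 5.23 and 5.39 in ChREBPβ KO. In all 4 groups the array with the highest skeletal muscle score also had the highest Pfkm, Pgam2 and Eno3, and in 3 of 4 the highest Fbp2. Aldoc, which is not counted among the muscle isoforms, was also highest there in 3 groups, but its rank correlation with the score was -0.75 in total WT. For Slc16a3, also not counted among them, this correlation was 0.50 in total WT and 0.96 in total KO. It was 0.39 in ChREBPβ WT and 0.90 in ChREBPβ KO. In WT of the total line the rank correlation (Spearman) with the score was 0.82 for Pfkm, 0.79 for Pgam2, 0.54 for Eno3 and 0.39 for Fbp2. The log2 fold changes in total ChREBP KO were 2.44 for Pgam2 (SE 1.13, adjusted p = 0.0818), 0.40 for Pfkm, 0.27 for Eno3 and -0.05 for Fbp2. With the muscle score as a covariate Eno3 turned to -0.99 (adjusted p = 0.0190) and Pgam2 to -0.42 (adjusted p = 0.237). Without the 4 muscle isoforms the median of the other 29 members was -0.38.

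**Figure D4:**
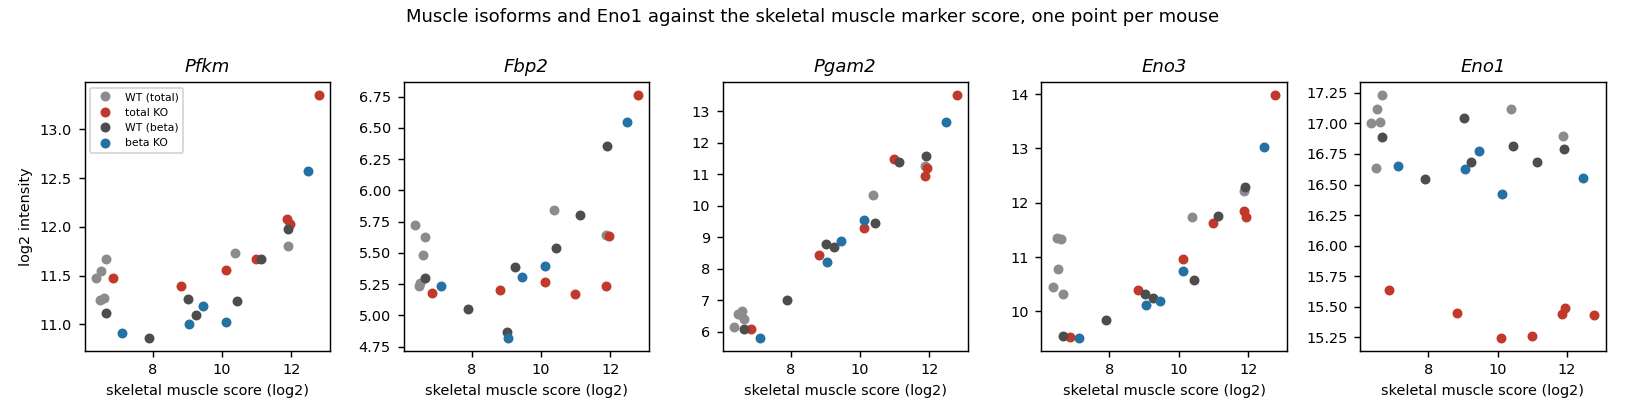
Log2 intensity of the 4 muscle isoforms and of Eno1 (vertical axes) against the score of 12 skeletal muscle markers (horizontal axis, mean log2 intensity), 1 point per mouse and 1 colour per group. Pgam2 runs with the score in all groups, whereas Eno1 lies between 15.24 and 15.64 in total KO at every score.

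In ChREBPβ KO, 1 of 33 members was called lower and 0 higher, beside 0.0394% and 0.00787% of all genes. At an unadjusted p under 0.05 there were 4 members, beside 7.75% of all genes, and the median log2 fold change was -0.07. The called member was Hk2. Its arrays read 13.52, 13.85 and 14.15 at the lowest, median and highest in WT and 13.31, 13.01, 13.32, 13.10 and 12.74 in ChREBPβ KO. All 5 KO arrays lay below all 7 WT arrays, and the KO level was 58.8% of WT (log2 fold change -0.77, SE 0.12, adjusted p = 0.0101). No other member separated the groups in this way, and over all genes 0.378% did.

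The Hk2 call in ChREBPβ KO was lost without replicate 2 or without replicate 6 of the KO, at a largest adjusted p of 0.0850, while its size stayed between -0.82 and -0.68 over all 26 such fits. It was also lost with arrays scaled to their 75th percentile (-0.79, adjusted p = 0.0549) and with only the 12 arrays of this line (adjusted p = 0.236). Within wash batches 1, 3 and 4 the KO minus WT difference was -0.99, -0.49 and -0.88.

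The other members past an unadjusted p of 0.05 in ChREBPβ KO were Pfkl, Gpi1 and Pfkfb1, none of which passed the adjustment. Pfkl read 11.59, 11.88 and 12.53 in WT and 11.72, 11.02, 11.46, 11.48 and 11.01 in ChREBPβ KO, with overlap at 1 KO array (log2 fold change -0.63, 95% interval -0.96 to -0.31, adjusted p = 0.221). The log2 fold changes of Gpi1 and Pfkfb1 were -0.43 (interval -0.71 to -0.16) and -0.23 (interval -0.46 to -0.01). Other members called in total ChREBP KO had intervals in ChREBPβ KO that included 0. These ran from -0.37 to 0.02 for Eno1, from -0.22 to 0.12 for Gapdh, from -0.15 to 0.30 for Tpi1 and from -0.14 to 0.42 for Pfkfb3. They reached further below 0 for Pkm (-0.54 to 0.04) and Slc16a1 (-0.51 to 0.11). Gckr in ChREBPβ KO read 7.26, 5.75, 7.31, 10.40 and 7.87, against 5.58, 7.87 and 9.57 in WT, so its interval was wide (-1.45 to 1.13).

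The difference of both KO effects was itself tested. The WT groups of the lines differed in lymphocyte and thermogenic scores, so isoform, line and tissue make-up cannot be told apart in it. The ChREBPβ KO effect minus the total ChREBP KO effect was above 0 for 9 members and below 0 for 4, beside 9.94% and 13.1% of all genes. The 9 were Hk2, Gpi1, Pfkl, Pfkp, Gapdh, Eno1, Pkm, Ldha and Slc16a1, each a member that had fallen in total ChREBP KO, and the 4 were Pfkfb1, Pfkfb2, Pfkfb3 and Tpi1, each of which had risen. The widest gap was that of Eno1 (1.41, SE 0.13). For Hk2, which was called in both lines, it was 1.07 (SE 0.17, adjusted p = 6.93e-05). For Gckr and Pfkfb4 it did not pass the test (1.48 and -0.39, adjusted p = 0.223 and 0.145). The call of Pfkfb2 (-0.25, adjusted p = 0.0457) was lost in 17 of 26 fits that left out 1 array, and that of Slc16a1 (0.61, adjusted p = 0.0331) in 7. With slide as a fixed block 3 of the 13 calls remained, those of Eno1, Pfkfb3 and Tpi1, and with slide as a random block all 13 did.

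Between the WT mice of both lines, the members were called at about the rate of all genes. In WT of the ChREBPβ line, 9 members were lower and 6 higher than in WT of the total line, beside 19.2% and 26.4% of all genes. Slc16a1 was at 62.1%, Pfkl at 61.2% and Hk2 at 70.9% of the other WT (adjusted p = 2.31e-04, 2.57e-04 and 7.64e-04). Pfkfb3 was 2.20-fold and Tpi1 1.48-fold higher. The Pfkfb3 arrays of the ChREBPβ line, at 15.28 to 15.84 in WT and 15.24 to 16.08 in KO, lay close to those of total ChREBP KO and above every WT array of the total line. All 15 lymphocyte and all 8 thermogenic markers were called lower in this comparison, with the scores given above. With muscle and lymphocyte scores as covariates, 4 members were lower and 0 higher, and 3 of the 15 called members kept their call. Line and tissue make-up cannot be told apart in this comparison, and the total KO comparison shares its WT arrays.

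Neighbouring steps (fructose and sorbitol handling, glycerol phosphate, gluconeogenesis, hexose phosphates, lactate) were covered by 23 genes. In total ChREBP KO 6 of them were lower and 10 higher, beside 19.7% and 26.2% of all genes. In ChREBPβ KO 0 were called, where 0.0394% of all genes were lower and 0.00787% higher. There, 4 had an unadjusted p under 0.05 (all genes, 7.75%). Gpd2, the mitochondrial glycerol phosphate dehydrogenase, was at 10.4% of WT (log2 fold change -3.26, adjusted p = 1.51e-14). Pck1, which makes phosphoenolpyruvate for glycerol and glucose synthesis, rose 6.67-fold (log2 fold change 2.74, adjusted p = 9.61e-12). Slc16a7, the carrier of lactate and pyruvate known as MCT2, rose 2.42-fold (log2 fold change 1.27, adjusted p = 8.38e-06). The cytosolic Gpd1 was at 61.4% of WT (adjusted p = 8.12e-09).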

How the data were processed

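Per the labels, RNA of 26 single mice was hybridised with 1 dye, and groups, replicate numbers and wash batches were taken from the labels. The authors extracted spot intensity values with Agilent Feature Extraction 10.10.1.1, and these deposited values are raw and on a linear scale. A second deposited file of the authors holds log2 values, quantile normalized after their own filter, which served as an alternative here.

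Median spot intensity was filtered (found, positive and well above background, on a minimum of 21 of 26 arrays or 75% of a group), outlier spots were set to missing, and log2 values were quantile normalized. This left 38832 probes, and replicate spots were resolved by their median. No background was subtracted, so low levels hold background and their changes are understated. Quantile normalization gives every array 1 shared distribution, and sets no level of a probe against that of another.

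A model with 4 group means was fitted to all arrays with limma 3.58.1 in R 4.3.3 (lmFit and eBayes, 22 residual degrees of freedom). The study's methods name no array test. P-values were adjusted by Benjamini-Hochberg over all tested probes, and calls were made at an adjusted p of 0.05. All adjusted p-values are from limma. The code was tested on simulated data. A score is the mean log2 intensity of a marker list. Values per array are given for members called in ChREBPβ KO, for the 6 largest changes among members called in total ChREBP KO, for the 4 muscle isoforms and, chosen after their values were seen, for Tpi1, Khk and Fbp1. Among neighbouring genes the 3 largest called changes are named, and Gpd1 was added after its values were seen. A gene of the neighbouring steps is not reported here. The members, marker lists and named genes were chosen with earlier results of these data known. Median intensity per array was 59 to 107.5, 70.2% to 76.5% of spots were well above background and 0 were saturated. The number of arrays limits the precision, and p-values measure the spread between these mice.

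Alternatives were other scalings, background correction with normexp (offset 50), no filter, kept outlier spots and array weights. Further ones were blocks for wash batch, slide (fixed or random) and replicate number, and marker scores as covariates. The scores used in this way were the muscle score alone and the muscle and lymphocyte scores together. The last were the median over the probes of a gene, fits of the compared arrays only, and leaving out each array.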

Additional observations from a re-analysis of the deposited data

Results flagged for a closer look

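In 132 sets of values (33 members in 4 groups), 14 had 1 array far from the rest against the range of its group (10.6%), where chance alone gives about 1 in 20. Of these, 4 belonged to replicate 7 of the total KO, the array with the highest muscle score, where Pfkm read 13.36, Fbp2 6.77, Aldoc 8.75 and Pkm 15.69, each the highest of its group. Replicate 4 of the ChREBPβ KO, with the highest muscle score of that group, was the highest for Pfkm (12.58) and Slc16a3 (10.23). The part of muscle in these values was not tested.

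Replicate 5 of the total KO was the highest for Gckr (6.11) and the lowest for Pfkfb4 (10.82). Replicate 8 of the total WT was the lowest for Pfkp (12.67) and Aldoa (18.12). Fbp1 was highest on replicate 6 of the total WT (11.15) and on replicate 8 of the total KO (8.30). Khk was highest on replicate 5 of the ChREBPβ KO (11.97), and Slc16a3 on replicate 3 of the ChREBPβ WT (10.41).

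The effects of both KOs differed by the interaction test of limma for 13 members. The ChREBPβ effect minus the total effect on the log2 scale was 1.41 for Eno1, 1.07 for Hk2, 1.05 for Pkm, 0.81 for Pfkl, 0.67 for Pfkp, 0.61 for Slc16a1, 0.58 for Gpi1, 0.53 for Gapdh and 0.37 for Ldha. It was -1.26 for Pfkfb3, -1.01 for Tpi1, -0.95 for Pfkfb1 and -0.25 for Pfkfb2.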

How the results depend on the processing

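In total ChREBP KO, 11 of the 18 called members kept their call in all 15 alternatives and in every fit without 1 array. Among them were Hk2 (log2 fold change -1.92 to -1.80 over the alternatives), Eno1 (-2.35 to -1.54), Pfkl, Pkm, Gpi1, Pfkfb3 (1.20 to 1.56) and Tpi1. No alternative had the thermogenic or the adipocyte score as a covariate, so these calls were not tested against those differences. With slide as a fixed block, 8 members were lower and 3 higher in total KO, and 0 were lower in ChREBPβ KO. In the difference of both KOs 1 effect was then higher and 2 lower, and between the WTs 3 were lower and 3 higher. With slide as a random block every call of these comparisons was kept. With muscle and lymphocyte scores as covariates, 3 were higher in total KO, and 4 lower and 0 higher between the WTs. The ChREBPβ KO count was 0 with median or processed intensity scaled to the 75th percentile and with only the arrays compared, and 0 to 1 without single arrays. The median over the probes of a gene gave 3 higher between the WTs.

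Ldha, called higher in WT of the ChREBPβ line, turned to -0.0810 with scaled median intensity, -0.10 with scaled processed intensity, -0.19 with both scores and -0.055 with the median over probes. Pfkfb4 between the WTs turned to -0.10 with both scores, Eno3 in total KO to -0.99 with the muscle score, and Pfkfb2 in total KO to -0.0276 within wash batch 1. The causes were not tested. Without single arrays, the counts in total KO were 12 to 14 lower and 5 to 7 higher.

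No consistent pairing by replicate number was seen, though so few pairs cannot exclude one. Deviations of same-numbered arrays correlated above 0.1 in 3 of 6 pairs of the total line (-0.356 to 0.508) and in 1 of 4 of the other line, and 2 and 0 of them correlated best with their own number. With the replicate block, 13 members were lower and 5 higher in total KO and 1 was lower in ChREBPβ KO, as without it, while 10 of 13 calls were kept in the difference of both KOs and 11 of 15 between the WTs.

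Members near background, such as Fbp2, Hkdc1 and Gckr, have understated changes, and the brightest probes of Aldoa, Gapdh and Ldha lie at the top of the scale.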
